A study of Mus musculus with 232 samples.

Results

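Vascular and leptomeningeal cells (VLMC) are the fibroblast-like cells of the pia and arachnoid, the inner membranes around the brain, and of the spaces around its larger vessels. In a single-cell RNA table of the mouse dentate gyrus, the hippocampal region that makes granule neurons after birth, 160 of 24185 cells carried this cluster name from the authors. The cells were taken by that name alone, over all ages, and no measured value was used to choose them. The table spans 8 ages and 11 libraries, and its 24 clusters were merged here into 19 classes, VLMC being both a cluster and a class.

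The ages E16.5, P0 and P5 are called perinatal, and their mice were of the CD-1 line with the sex unknown. P18 and P23 came from male CD-1 mice and P19 from female C57Bl/6 mice, and these are called juvenile. P120 and P132 were pools of males and females of hGFAP-GFP mice, in which the human GFAP promoter, active in astrocytes and radial glia, drives green fluorescent protein, and only GFP-positive cells were kept. In all groups the dentate gyrus was cut out of brain slices and digested with papain, so meninges were sampled only as far as they stayed on the slice. Each age had its own libraries and pooled animals, so age, animals and library cannot be told apart, and p-values here measure the spread between ages only.

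VLMC lay down fibrillar collagens and the proteoglycans that bind them, and help build the basement membrane at the brain surface. They make retinoic acid and secrete growth factors, among them IGF2 and the chemokine CXCL12, which reach the tissue beneath. They also carry a distinct set of membrane transporters for amino acids, GABA and organic anions, and prostaglandin D synthase (Ptgds), a secreted enzyme that also binds lipids, is a known product of the leptomeninges.

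VLMC made up 61 of 2285 cells at E16.5 (2.67%, exact 95% interval 2.05 to 3.42), 11 of 4779 at P0 (0.230%, 0.115 to 0.411) and 59 of 4435 at P5 (1.33%, 1.01 to 1.71). They were 4 of 2712 cells at P18 (0.147%, 0.0402 to 0.377), 3 of 2081 at P19 (0.144%, 0.0297 to 0.421) and 19 of 2701 at P23 (0.703%, 0.424 to 1.10). Among the sorted adult cells there were 0 of 1363 at P120, which allows a share of up to 0.220% by a floor of 3 counts, and 3 of 3829 at P132 (0.0783%, 0.0162 to 0.229). These intervals are Clopper-Pearson and cover counting error only. P0 lay below P23, so the stages overlapped: the mean share was 1.41% ± 1.22 (SD, n = 3 ages) at perinatal and 0.332% ± 0.322 (SD, n = 3) at juvenile ages, a juvenile minus perinatal difference of -1.08 points (two-sided exact permutation test, p = 0.2, where 0.1 is the smallest possible).

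Set against the other vascular class, called Endothelial by the authors, the stages separated. The Endothelial cells numbered 33, 17 and 59 at E16.5, P0 and P5 (1.44%, 0.356% and 1.33% of all cells) and 89, 95 and 120 at P18, P19 and P23 (3.28%, 4.57% and 4.44%), so the denominator also differed between the stages. VLMC were 64.9%, 39.3% and 50% of VLMC plus Endothelial cells at E16.5, P0 and P5, and 4.30%, 3.06% and 13.7% at P18, P19 and P23. The difference was -44.4 points (51.4 ± 12.9 against 7.01 ± 5.80, SD, n = 3 ages each; exact permutation p = 0.1, the smallest possible). Over VLMC, Endothelial, perivascular macrophage (PVM) and Microglia cells together it was -28.1 points, again without overlap (exact permutation p = 0.1). The 2 libraries of P5 gave 1.58% and 1.08% of all cells, those of P0 0.166% and 0.295%, and those of P132 0% and 0.156%.

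**Figure D1:**
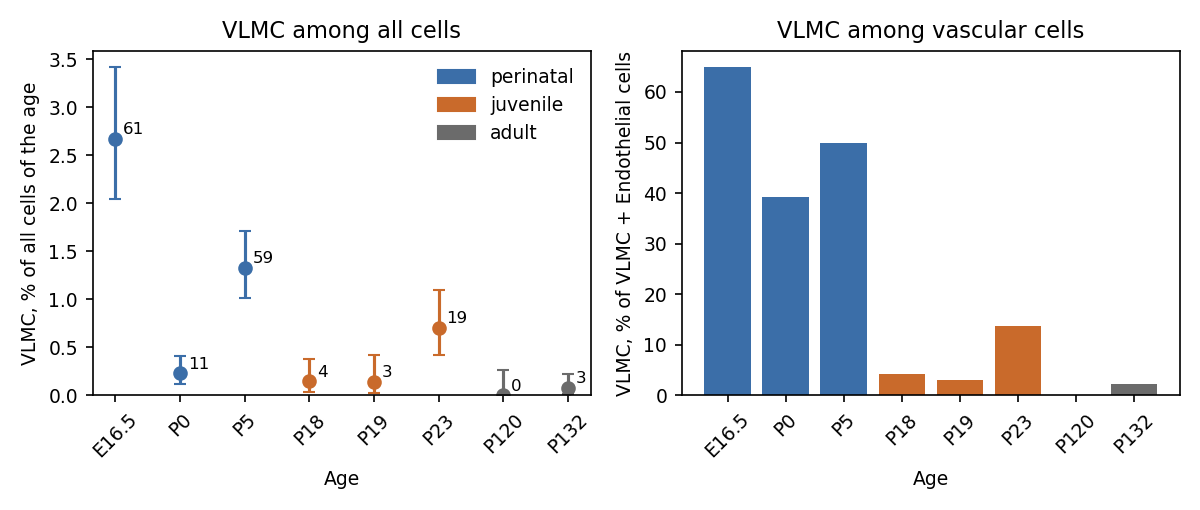
Left, VLMC as a percent of all cells of each age, with exact 95% binomial intervals and the number of VLMC cells beside each point. Right, VLMC as a percent of VLMC plus Endothelial cells; the perinatal ages lie at 39.3 to 64.9% and the juvenile ages at 3.06 to 13.7%.

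A unique molecular identifier (UMI) marks 1 captured transcript, and levels are given as UMIs per 1000000 UMIs of the summed cells (CPM). VLMC cells held a median of 5307 UMIs and 2084.5 genes, against 3685 UMIs in all other cells, and VLMC ranked 5 of 19 classes in UMIs. The medians were 6743, 5841 and 4849 UMIs at E16.5, P0 and P5, 1685.5, 1905 and 3959 at P18, P19 and P23, and 2055 at P132. One UMI was therefore worth 2.01, 14.1 and 2.92 CPM at the perinatal ages but 110, 155 and 11.8 CPM at the juvenile ages, and P18 and P19 rest on 4 and 3 cells. With 1000 UMIs drawn from each cell, the median cell had 615 to 649 genes at every age. Of the 456 cell barcodes that occurred in more than 1 library, 3 belonged to VLMC cells, and in none of these was the other cell a VLMC.

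The label was checked against 5 markers: Col1a1 and Col1a2, the chains of type I collagen, the proteoglycans Dcn and Lum, and Igf2. At least 3 of the 5 were seen in 157 of 160 VLMC cells and in 0.104% of other cells, and 99 VLMC cells had all 5. Col1a2 was detected in 95.6% of VLMC cells, in 16.9% of Endothelial cells, the next class, and in 0.0332% of granule cells (GC), a neuron class that should lack it. GC had a median of 2388 UMIs. Lum was detected in 70.6% of VLMC cells and 2.19% of GC. Thinned to 1000 UMIs, Col1a2 was still seen in 75.6% and Lum in 25.0% of VLMC cells. The 5 markers summed to between 2773 and 9478 CPM in the VLMC cells of each age, against 14.2 to 29.3 CPM in all other cells of the same ages. At P132, the age of 2773 CPM, a list of 8 oligodendrocyte genes summed to 11744 CPM in the VLMC cells. There 2 of the 3 cells held more UMIs of another class's list than of the 5 markers. The authors made the clusters from the same cells, so this check is a description.

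Some markers of other classes were absent and others were not. Pecam1 and Ly6c1 (endothelium), Myh11 (smooth muscle), Mrc1 and Cd163 (macrophages), Mog (myelin), Prlr and Otx2 (choroid plexus epithelium) and Krt8 (arachnoid barrier) had no UMI in any VLMC cell. The 10 endothelial markers summed to 1094 CPM in VLMC, of which Itm2a gave 964, against 13488 CPM in the Endothelial class. The 10 mural markers summed to 2578 CPM through Vtn, vitronectin, at 2490 CPM, a gene higher in VLMC than in any other class. All 8 astrocyte and radial glia genes had UMIs, summing to 1125 CPM against 28005 in Astro, the astrocyte class, with the gap junction gene Gja1 at 913 CPM. Of 6 arachnoid barrier genes 5 had UMIs, summing to 825 CPM, of which the claudin Cldn11 gave 777. Of 5 ependymal genes 2 had UMIs and summed to 393 CPM, nearly all from Rarres2. The oligodendrocyte list summed to 375 CPM, the 10 neuron genes to 342, 4 of 6 choroid plexus genes to 62.0 and the blood list to 3875 CPM. Single cells carried most of some signals: 3767 of the 3940 blood-marker UMIs came from 1 cell at P5, and 37 of the 52 Microglia and PVM marker UMIs from 1 cell at P23. Altogether 27 VLMC cells held more UMIs of another class's list than of the VLMC markers, 16 of them only through the mural or astrocyte lists, and 1 cell at P0 had no VLMC marker UMI. No doublet caller was run; 16 cells had over 2 times the median UMIs of their age.

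Some genes were seen almost nowhere else in the table. Among the 1448 genes at 100 CPM or more in VLMC, 40 were at least 5 times, 23 at least 10 times and 6 at least 50 times as high as in the highest other class. The clusters were made by the authors from the same cells, by steps not given in the sources used here, so the ratios are a description. The organic anion transporter Slc22a6 had 380 CPM in VLMC and 97.7% of all its UMIs in the table, a ratio of 442 to the next class (95% counting interval 150 to 2152; 3 UMIs in RGL, the radial glia-like cells). The GABA transporter Slc6a13 had 891 CPM and 93.7% of its UMIs in VLMC, 128 times the level in Endothelial cells. Aldh1a2, the enzyme that makes retinoic acid from retinaldehyde, had 301 CPM and 95.6% of its UMIs in VLMC. Wnt6, a secreted signal, had 100.3 CPM against 1 UMI in Ependymal cells, the highest other class (ratio 97.0, counting interval 17.0 to 3866).

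The 20 genes with the largest ratios fall into a few roles. Matrix genes were Col3a1 (41.9 times the next class), Col1a2 (34.4), Col1a1 (32.7), Col6a1 (27.0), Col6a3 (17.4), Dcn (80.8), Lum (22.0), Pcolce (14.3), which speeds removal of the collagen propeptide, and Lox (26.6), which crosslinks collagen. Retinoid genes were Aldh1a2 (42.1) and Crabp2 (82.5), which carries retinoic acid to the nucleus. Transporters and channels were Slc22a6, Slc6a13 and the gap junction gene Gjb2 (23.7). Gpc3 (10.9), a cell-surface proteoglycan, and the imprinted noncoding RNA H19 (38.1) belong to growth control. The rest were Asgr1 (119), Wnt6, Cmbl (44.4) and C1qtnf2 (12.1). At each of the 4 ages with at least 10 VLMC cells (E16.5, P0, P5 and P23), all 20 were higher in VLMC than in every other class of at least 10 cells, and 16 to 18 were at least 10 times higher.

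**Figure D2:**
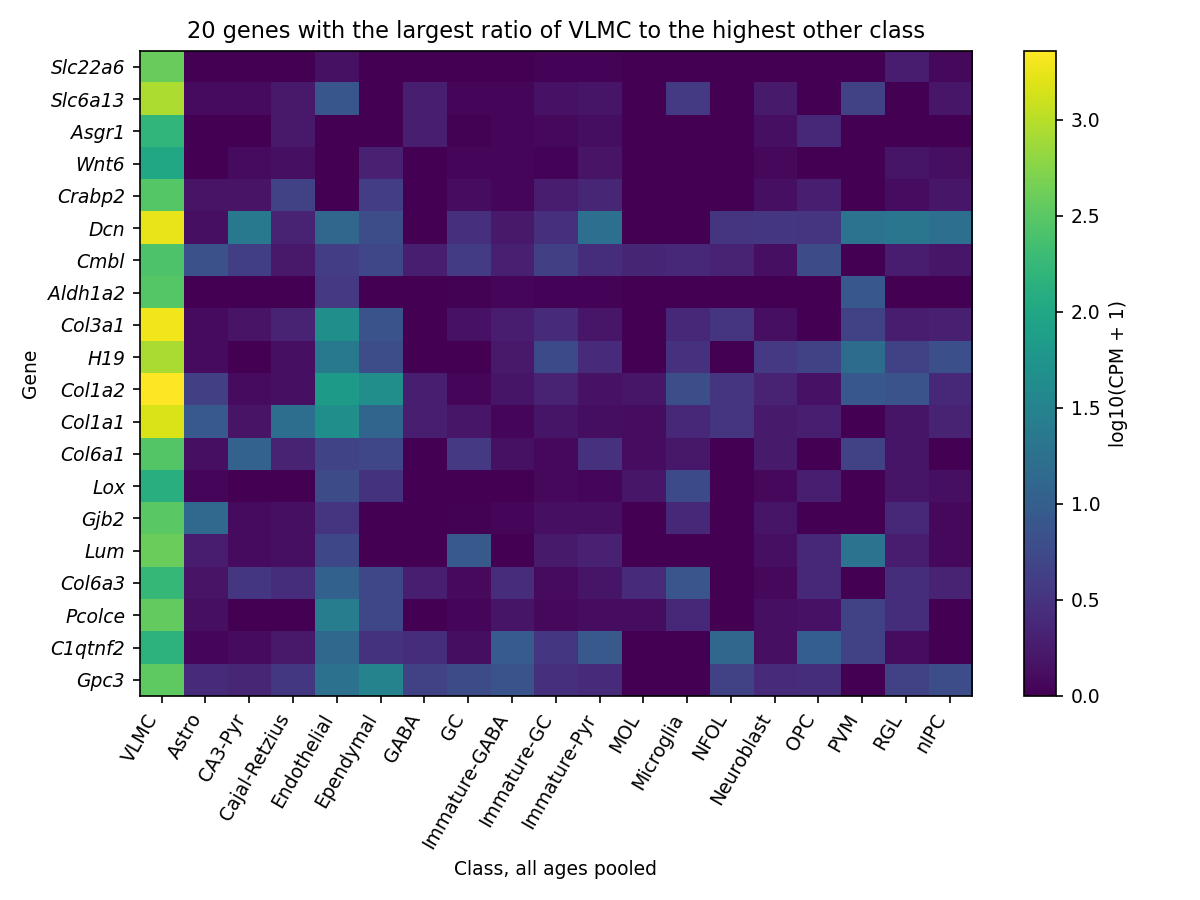
Level of the 20 genes with the largest ratio of VLMC to the highest other class, in each of the 19 classes with all ages pooled; the colour is log10(CPM + 1). The VLMC column runs from 100.3 CPM (Wnt6) to 2286 CPM (Col1a2), while the highest values of the Endothelial column are 66.4 (Col1a2), 46.0 (Col3a1) and 45.6 CPM (Col1a1).

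Of 11 fibrillar collagen genes, 7 were highest in VLMC among the 19 classes, and their sum was 6164 CPM against 229 in Endothelial cells. Col1a1 had 898, 2451 and 2180 CPM at E16.5, P0 and P5, and 1767, 465 and 1523 at P18, P19 and P23, so that E16.5 and P19 were the low ages and the stages overlapped. Col3a1, the type III chain, had 1408, 3591 and 2366 against 3202, 155 and 1913 CPM, with P19 low and the other ages mixed. At P0 a single cell gave 108 of the 174 Col1a1 UMIs and 139 of the 255 Col3a1 UMIs. Col3a1 lies beside Col5a2, a type V chain, at chr1:45311538-45349706 and chr1:45374321-45503282 on opposite strands (mm10, GENCODE M21), and both were highest in VLMC.

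Small leucine-rich proteoglycans coat collagen fibrils and set their spacing. Of 13 genes, 7 were highest in VLMC, and the sum was 3020 CPM against 384 in Endothelial cells. On chromosome 10, Dcn (chr10:97479609-97518143) and Lum (chr10:97565128-97572703) had 1786 and 392 CPM, while their neighbours Kera (chr10:97606879-97613692) and Epyc (chr10:97644068-97682454) had 0 UMIs and 6.89 CPM. On chromosome 13, Ogn (chr13:49608046-49624501) had 203 CPM and was highest in VLMC, whereas Aspn (chr13:49544443-49567565) had 1.97 CPM against 86.4 in Endothelial cells and Ecm2 (chr13:49504810-49532789) 7.87 CPM against 54.8 in Ependymal cells. In these libraries the neighbouring genes of both clusters were thus expressed unevenly in VLMC.

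Basement membrane genes were shared with the Endothelial class. The 20 genes summed to 2280 CPM in VLMC and 2389 in Endothelial cells, and 9 were highest in VLMC. Col4a1 and Col4a2, the type IV collagen chains that start side by side on opposite strands of chromosome 8, had 331 and 336 CPM in VLMC against 480 and 494 in Endothelial cells. The nidogen Nid2 had 274 CPM against 61.6, and Lamb1, a laminin chain, 146 against 75.5. Among elastic and adhesive matrix genes, 16 of 29 were highest in VLMC; Sparc had 2805 CPM in VLMC and 2629 in Endothelial cells, and Vtn 2490 against 628. Fibronectin (Fn1) was lower, at 222 against 531 CPM, and was seen in 46 of 160 VLMC cells.

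Of 28 genes of the solute carrier list, most of them transporters, 15 were highest in VLMC, and the list summed to 3909 CPM in VLMC and 5106 in Astro. Slc6a13 had 858, 1014 and 972 CPM at perinatal and 331, 310.0 and 815 CPM at juvenile ages, and its neighbour Slc6a12, which carries betaine and GABA, had 29.5 CPM over all ages and was also highest in VLMC. Slc22a6 (chr19:8618039-8628299) had 380 CPM in VLMC and 0.434 in Endothelial cells, while the adjacent organic anion transporter Slc22a8 (chr19:8591254-8611835) had 41.3 CPM in VLMC and 371 in Endothelial cells. The sulfate transporter Slc13a4 had 138 CPM and the amino acid carrier Slc6a20a 286 CPM, both above every other class.

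Of 15 retinoid genes, 8 were highest in VLMC, but the list summed to 3116 CPM in VLMC against 18835 in Ependymal cells. Aldh1a2 had 219, 338 and 414 CPM at E16.5, P0 and P5 and 442, 310.0 and 295 CPM at P18, P19 and P23, and Crabp2 had 324, 254 and 219 against 331, 310.0 and 484 CPM. The stages overlapped for both genes, and neither passed the stage test described next. Among transcription factors, 18 of 34 were highest in VLMC, including Zic1 (528 CPM, in 144 cells), Tbx18 (377), Foxc1 (243) and Osr1 (209). Genes of the cell cycle summed to 233 CPM, against 8064 in nIPC, the dividing neuronal progenitors, and none of the 15 was highest in VLMC. P0 had 887 CPM of that sum and every other age 228 CPM or less.

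To ask what differed between stages, the UMIs of the VLMC cells of each age were summed and the 3 juvenile ages were tested against the 3 perinatal ages with edgeR's quasi-likelihood test and Benjamini-Hochberg adjustment over 1184 genes that passed the filter on low counts. At an adjusted p under 0.05, 31 genes rose (2.62% of those tested) and 12 fell (1.01%), with a median log2 fold change of -0.09 over all genes. Ptgds, Apod, Igfbp5, Trf and Slc7a11 were among those that rose, and Fabp5, Sox11, Cthrc1 and Meg3 among those that fell. Genes with the largest changes were named only if their stages did not overlap, so lack of overlap is no further support for them. Of the 5 markers and the 4 tested fibrillar collagens, with Col1a1 and Col1a2 in both sets, 0 passed. At an unadjusted p under 0.05 there were 0 of them, against 247 of all 1184 genes tested. By DESeq2 0 of them passed, against 18 higher and 51 lower over all genes. Of the 371 genes in the lists used here, 102 were tested: 7 rose (Col12a1, Efemp1, Igfbp5, Prelp, Ptgds, Slc38a2, Slc7a11) and 3 fell (Fos, Klf2, Meg3), with a median of -0.28.

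Ptgds had the highest level of any gene named here. It had 5745, 338 and 4406 CPM at E16.5, P0 and P5, and 21530, 68816 and 75732 CPM at P18, P19 and P23, so all juvenile ages lay above all perinatal ages. The log2 fold change was 4.08 (SE 0.771, edgeR adjusted p = 0.00838). The level differed greatly between cells: Ptgds was seen in 26 of 61 cells at E16.5, where 1 cell gave 1640 of 2853 UMIs, in 7 of 11 at P0 and in 31 of 59 at P5. It was seen in 1 of 4 cells at P18 (195 UMIs), 2 of 3 at P19 and 17 of 19 at P23, where leaving out the highest cell gave 60182 CPM. The next class for Ptgds was MOL, mature oligodendrocytes, at 2125 CPM, and all other cells had 7.05 to 237 CPM at these ages. The whole oligodendrocyte list, of which 7 of 8 genes had a UMI in VLMC and Mog none, had a sum of 169 to 347 CPM over E16.5, P0 and P5 and of 437 to 994 CPM over P18, P19 and P23, led by Pdgfra. The astrocyte and radial glia list had 859 to 1242 CPM over the perinatal ages, 620 at P19 and 1193 at P23 but 5521 CPM at P18, where 1 cell held all 50 of its UMIs against 36 of the VLMC markers, and the same cell held all 195 Ptgds UMIs. Cells outside VLMC had 2668 CPM of that list at P18. The part of either list in the result was not tested. Without P19 the edgeR adjusted p was 0.0605, and without cells holding markers of another class 0.0947.

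The secreted proteins Apod, Igfbp5 and Trf also rose. Apod, apolipoprotein D, had 842, 1535 and 864 CPM at perinatal and 3975, 4185 and 3105 CPM at juvenile ages (log2 fold change 1.88, SE 0.351, edgeR adjusted p = 0.00802). Igfbp5, which binds IGFs, had 98.7, 70.4 and 114 against 883, 155 and 933 CPM (log2 3.13, SE 0.432, edgeR adjusted p = 0.00116), but 44 and 31 of the 79 UMIs at P23 came from single cells. Trf, transferrin, the iron carrier of plasma, had 42.3, 14.1 and 26.3 against 221, 155 and 307 CPM (log2 3.24, SE 0.470, edgeR adjusted p = 0.00123). The stages did not overlap for any of these 3 genes, but in P18 and P19 the Trf level rests on 2 and 1 UMIs. The Igfbp5 level at P19 rests on 1 UMI (counting interval 3.92 to 864 CPM). In cells outside VLMC, Trf had a mean of 10.2 CPM over the perinatal and 184 CPM over the juvenile ages. Igfbp5 had 51.2 and 120 CPM there, and Apod 6.31 and 59.8 CPM. The part of free RNA from those cells in these results was not tested. Without P23 the edgeR adjusted p of Igfbp5 was 0.0828 and that of Trf 0.161. The call of Apod was lost with any 1 of E16.5, P0, P5 and P18 left out.

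The cystine and glutamate exchanger Slc7a11 had 308, 310.0 and 531 CPM at perinatal and 1656, 1705 and 1311 CPM at juvenile ages (log2 2.05, SE 0.370, edgeR adjusted p = 0.00719). Efemp1, a fibulin of the elastic matrix, had 60.4, 56.3 and 52.5 against 221, 465 and 283 CPM (log2 2.55, SE 0.408, edgeR adjusted p = 0.00275). Both genes separated the stages without overlap. One UMI was worth 110 CPM at P18 and 155 CPM at P19, so the Efemp1 levels there rest on few UMIs. Mrc2, a receptor that takes up collagen, had 44.3, 14.1 and 52.5 against 221, 155 and 307 CPM (log2 2.83, SE 0.466, edgeR adjusted p = 0.00328). Its levels at P0 and P19 are those of 1 UMI. Nr1d2, a repressor of the circadian clock, had 9 UMIs over the perinatal and 16 over the juvenile ages (9.89 and 160 CPM; log2 4.09, SE 0.587, edgeR adjusted p = 0.00123). At P18 it had 2 UMIs in 1 cell, and at P19 it had 1 UMI. The other genes that rose most, Pam, Atp1b2, Tspo, Trpm7, Elovl5 and Serinc3, had log2 fold changes of 2.23 to 2.79. The call was lost without P0 for Slc7a11 and Nr1d2 (edgeR log2 1.71 and 3.90) and without P23 for Efemp1 and Mrc2 (2.27 and 1.91), while Pam and Tspo lost it with 5 of the 6 ages left out in turn and Trpm7 with each. Atp1b2 lost it without P23, Elovl5 without P0 or P23, and Serinc3 without P0 or P19. Slc38a2, an amino acid transporter, also passed (log2 2.45, edgeR adjusted p = 0.0248), but its stages overlapped, 40 and 25 of its 77 UMIs at P23 came from single cells, and without P23 its log2 fold change was -0.23.

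Among genes that fell, Fabp5, a fatty acid-binding protein, had 1138, 1563 and 1523 CPM at E16.5, P0 and P5 and 110, 155 and 23.6 CPM at P18, P19 and P23, from 1198 and 4 UMIs (log2 -4.77, SE 0.617, edgeR adjusted p = 0.00116). Sox11, a transcription factor of immature neurons and progenitors, had 201, 423 and 277 CPM and then 0 UMIs at all 3 juvenile ages, at least 8.26-fold lower by a floor of 3 counts over the stage (edgeR adjusted p = 0.00969). Cells outside VLMC had 2166, 1572 and 1163 CPM of Sox11 at perinatal and 163 to 235 at juvenile ages, and 1017 to 1413 and 192 to 438 CPM of Fabp5. The part of free RNA from those cells in the result was not tested. Without P23 the edgeR adjusted p of Sox11 was 0.102.

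Cthrc1, a secreted protein of collagen-making cells, had 691, 690 and 689 CPM at perinatal and 221, 310.0 and 70.8 CPM at juvenile ages (log2 -2.41, SE 0.503, edgeR adjusted p = 0.0141), without overlap. It was higher in VLMC, at 628 CPM over all ages, than in any other class. Marcksl1, which regulates actin, had 846, 1014 and 762 against 221, 0 and 106 CPM (log2 -2.76, edgeR adjusted p = 0.00719), and the actin-bundling gene Fscn1 129 perinatal UMIs against 1 juvenile UMI (ratio 0.0704, counting interval 0.00177 to 0.399). Klf2, a transcription factor induced by flow in endothelium, had 207, 366 and 268 against 0, 0 and 47.2 CPM (log2 -2.53, edgeR adjusted p = 0.0424). Fos, an immediate early gene that cell dissociation can switch on, had 892, 1760 and 972 against 110, 465 and 319 CPM (log2 -1.81, edgeR adjusted p = 0.0457) and was the only 1 of 11 tested dissociation genes to pass. Cthrc1 lost its call without P0 or P23, Fscn1 without P0, P18 or P19, Klf2 without any 1 of P0, P18, P19 and P23, and Fos without any 1 of 5 ages, all but E16.5.

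Gm8730, a processed pseudogene at chr8:102864845-102865798 that shares 62.8% of its 31-base words with the ribosomal gene Rplp0, fell by 3.92 on the log2 scale, and the ribosomal gene Rpl10a fell by 1.63. Reads of near-identical copies cannot be told apart for either. The lincRNA 1810058I24Rik fell by 2.02. Rpl10a lost the call without any 1 of P0, P5, P18 and P19, and 1810058I24Rik without P0, P18 or P23. Fabp5, Gm8730 and Marcksl1 kept their call under all 15 other settings tried, and each of the other named genes lost it under at least 1. Among the settings, that relative to the median of all genes only shifts the fold changes, so no call could be lost under it. Fabp5, Gm8730 and Marcksl1 also fell in the cells outside VLMC. Their means there over perinatal and juvenile ages were 1280 and 278 CPM, 1266 and 114 CPM, and 2560 and 514 CPM. Fscn1 had 216 and 119 CPM outside VLMC, and Rpl10a 1818 and 481 CPM. The part of free RNA from those cells in these falls was not tested.

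In the summed cells outside VLMC, 22 of the 31 genes that rose were also higher at all juvenile than at all perinatal ages, and 8 of the 12 that fell were lower. Over all 1184 genes tested, 187 (15.8%) were higher and 480 (40.5%) lower outside VLMC in the same way. Col12a1 and Klf2 went the other way outside VLMC. Across the 1184 genes tested, 369 did not overlap between stages in VLMC, and 40 of the 43 called genes were among them. The counts depended on single ages: without P0 they were 11 and 5, and without P23 17 and 46. Without the 27 cells that held markers of another class they were 9 and 7 of 845 genes tested.

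**Figure D3:**
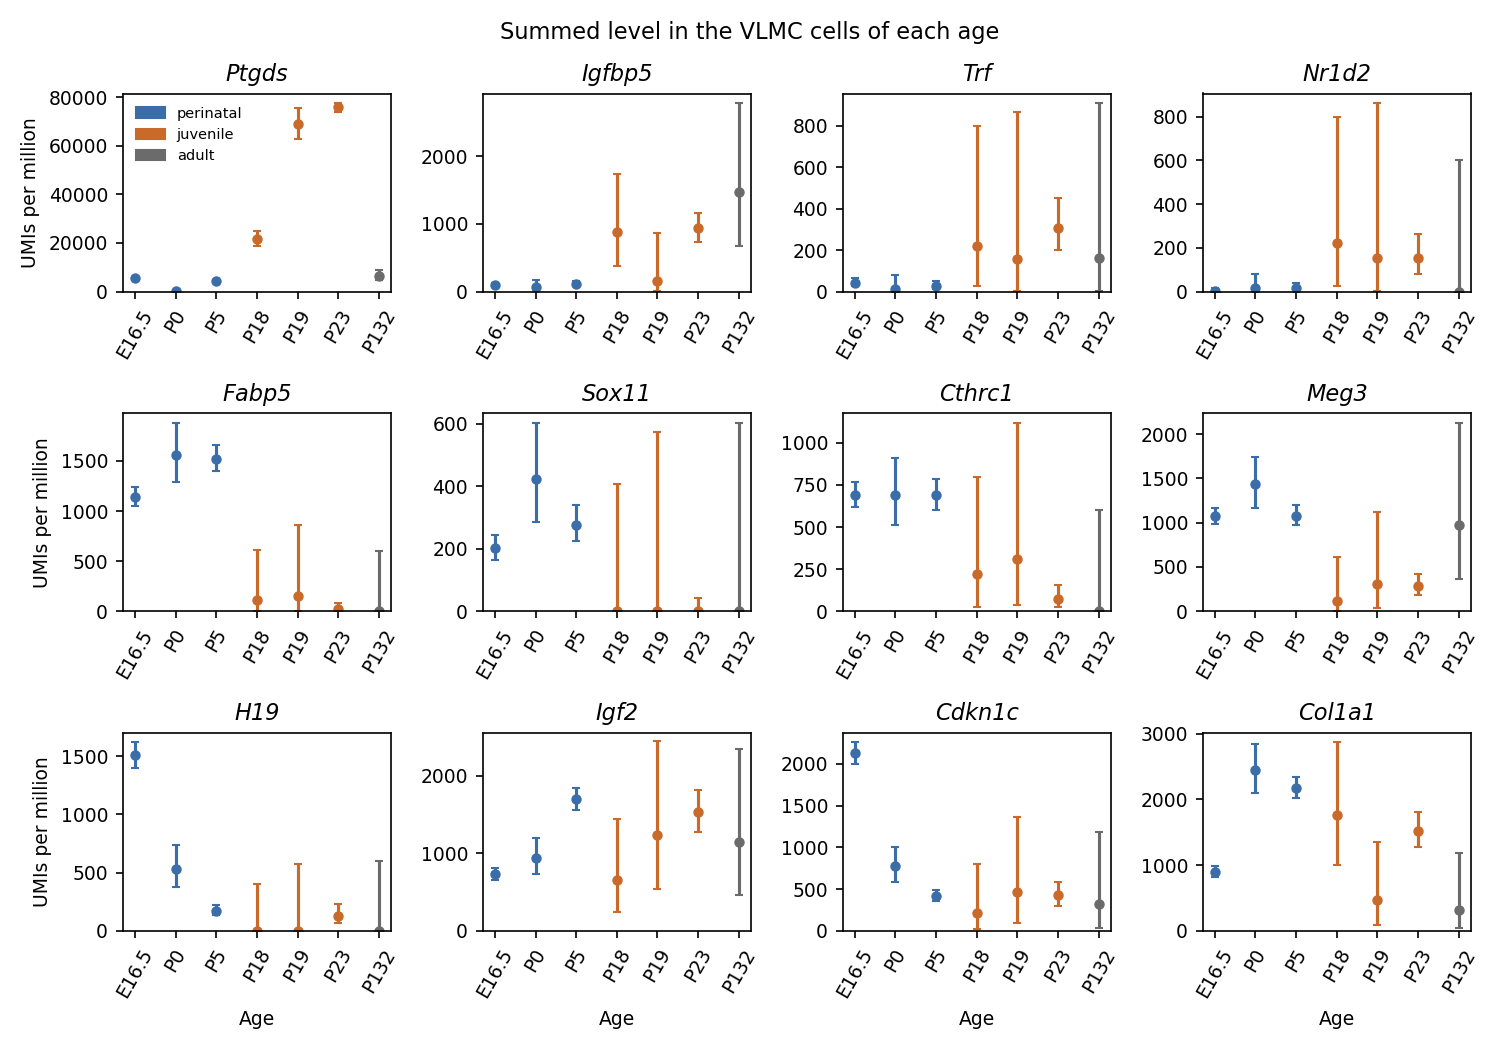
Summed level of 12 genes in the VLMC cells of each age, in CPM, with exact 95% Poisson intervals that cover counting error only. Ptgds, Igfbp5, Trf and Nr1d2 are higher at all 3 juvenile than at all 3 perinatal ages, Fabp5, Sox11, Cthrc1 and Meg3 lower, and H19 and Cdkn1c are highest at E16.5.

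Imprinted genes are expressed mainly from 1 parental allele, and many act on fetal growth. Of 19 such genes, 11 were highest in VLMC, and the list summed to 7471 CPM in VLMC and 12080 in Immature-GABA, a neuron class. Igf2 (chr7:142650766-142666816) and the noncoding H19 (chr7:142575529-142578143) lie next to each other under shared control. H19 had 1506, 535 and 175 CPM at E16.5, P0 and P5, then 0, 0 and 130 CPM at P18, P19 and P23, and was seen in 53 of 61, 4 of 11, 14 of 59, 0 of 4, 0 of 3 and 3 of 19 cells. Igf2 had 729, 944 and 1701 CPM, then 662, 1240 and 1535 CPM. H19 was thus highest at E16.5, where Igf2 had its second lowest level. A floor of 3 counts was 331 CPM at P18 and 465 CPM at P19, above the H19 level of P5. In the stage test H19 had a log2 fold change of -2.67 (SE 0.882, edgeR adjusted p = 0.0958) and Igf2 of 0.26 (edgeR adjusted p = 0.821), so neither passed. By DESeq2 H19 passed, with a log2 fold change of -3.30 (adjusted p = 0.0317).

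The growth inhibitor Cdkn1c (chr7:143458339-143461050) had 2124, 775 and 420 CPM at perinatal and 221, 465 and 425 CPM at juvenile ages, with overlap at P5 (log2 -1.34, edgeR adjusted p = 0.210). Meg3, a noncoding RNA, was the only tested gene of 7 in this group to pass: it had 1071, 1437 and 1080 against 110, 310.0 and 283 CPM (log2 -2.03, SE 0.430, edgeR adjusted p = 0.0150). Its call was lost without P0 (0.0559) or P18 (0.0699). Outside VLMC, Meg3 had 1078 to 4081 CPM at perinatal and 1133 to 1757 at juvenile ages. Dlk1, a Notch-family ligand at the same imprinted domain, had 129, 239 and 5.84 CPM and then 0 UMIs at every juvenile age. Mest had 185, 155 and 125 against 0, 0 and 35.4 CPM. A floor of 3 counts was 331 CPM at P18 and 465 CPM at P19, above every perinatal level of both genes. The 0 values at these ages therefore show no fall. At P23 the floor was 35.4 CPM, and Dlk1 had only 2 UMIs at P5. Neither Dlk1 nor Mest reached the filter of the test.

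The Endothelial cells of the same animals gave a comparison within ages. With age as a block, edgeR's quasi-likelihood test asked whether the stage difference of VLMC differed from that of Endothelial cells. Of 6059 genes, 17 had a more positive difference in VLMC (0.281%) and 48 a more negative 1 (0.792%), with a median of -0.44 over all genes. Under another scaling (RLE) the counts were 28 and 42 and the median rose by 0.303, so single genes are given both as fitted and relative to the median. Of 252 tested list genes, 7 were more positive and 15 more negative. The Endothelial class also held mural markers, which summed to 3403 to 6225 CPM over these ages, and blood markers, which summed to 9265, 54416 and 47788 CPM at perinatal and 1068, 6751 and 11838 CPM at juvenile ages; their part in the result was not tested.

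Cxcl12, which guides migrating neurons and blood cells, had stage differences of opposite sign in the 2 classes. In VLMC it had 1029, 2169 and 2474 CPM at E16.5, P0 and P5 and 1325, 930 and 720 CPM at P18, P19 and P23. In Endothelial cells it had 50.6, 58.0 and 200 CPM and then 737, 1010 and 1284 CPM. VLMC was therefore above Endothelial at E16.5 to P18 and below it at P19 and P23. At P19 the 3 VLMC cells held 4, 2 and 0 UMIs of Cxcl12 and 1 UMI was worth 155 CPM, so the order there is uncertain. The difference of differences was -4.90 (SE 0.619, edgeR adjusted p = 7.91e-12), or -4.46 relative to the median, while the stage difference of VLMC alone did not pass (log2 -0.92, edgeR adjusted p = 0.232). Cxcl12 and the metallothionein Mt2 (-5.17, or -4.72 relative to the median) kept their call under all 11 other settings.

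Trf went the other way. It had 462, 355 and 162 CPM in Endothelial cells at perinatal and 50.8, 78.6 and 30.9 CPM at juvenile ages, against the rise in VLMC given above (difference of differences 5.56, SE 0.659, edgeR adjusted p = 1.95e-13, or 6.00 relative to the median). Apod likewise had 348, 435 and 314 and then 119, 165 and 72.1 CPM in Endothelial cells (2.97, SE 0.570, edgeR adjusted p = 9.86e-05). Endothelial cells had more Trf than VLMC at every perinatal age and less at every juvenile age, and less Apod at all 6 ages. Without P23 the edgeR adjusted p of Trf was 0.0955, and without P0 that of Apod 0.0696. With Microglia in place of Endothelial cells the Apod value was -3.25 and the Trf value 1.02 (edgeR adjusted p = 0.611), and neither passed.

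Aldh1a1, Edn3 and Igfbp4 did not pass the stage test in VLMC, but their stage differences differed from those of Endothelial cells. Aldh1a1, another retinaldehyde dehydrogenase, had 84.6, 352 and 338 CPM in VLMC at perinatal and 552, 775 and 260 CPM at juvenile ages, and 0, 0 and 1.90 and then 106, 43.2 and 51.5 CPM in Endothelial cells (-5.14, edgeR adjusted p = 3.61e-05). Edn3, a secreted endothelin, had 119, 127 and 274 and then 552, 155 and 94.5 CPM in VLMC, and 0, 0 and 3.81 and then 59.3, 39.3 and 75.6 CPM in Endothelial cells (-5.34, edgeR adjusted p = 1.91e-06). Both genes were seen in VLMC at every age and in Endothelial cells mainly at juvenile ages. Igfbp4, an IGF-binding protein, had 330, 352 and 470 and then 331, 620 and 177 CPM in VLMC but 288, 442 and 318 and then 38.1, 35.4 and 24.0 CPM in Endothelial cells (2.59, edgeR adjusted p = 0.00953). With Microglia in place of Endothelial cells neither Aldh1a1 (-1.12, edgeR adjusted p = 0.907) nor Edn3 (-3.83, edgeR adjusted p = 0.398) passed. Sema3c, Lox, Slc38a2, Fbln1 and Slco2b1 also passed. Slco2b1 had 0 perinatal and 5 juvenile UMIs in VLMC, and Lox 0 perinatal UMIs in Endothelial cells, so their fitted values depend on the prior count. Igfbp4 lost its call without P0 or P23, Sema3c, Slc38a2 and Fbln1 without P23, Slco2b1 without P5 or P19, and Lox without P0, P5 or P19.

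**Figure D4:**
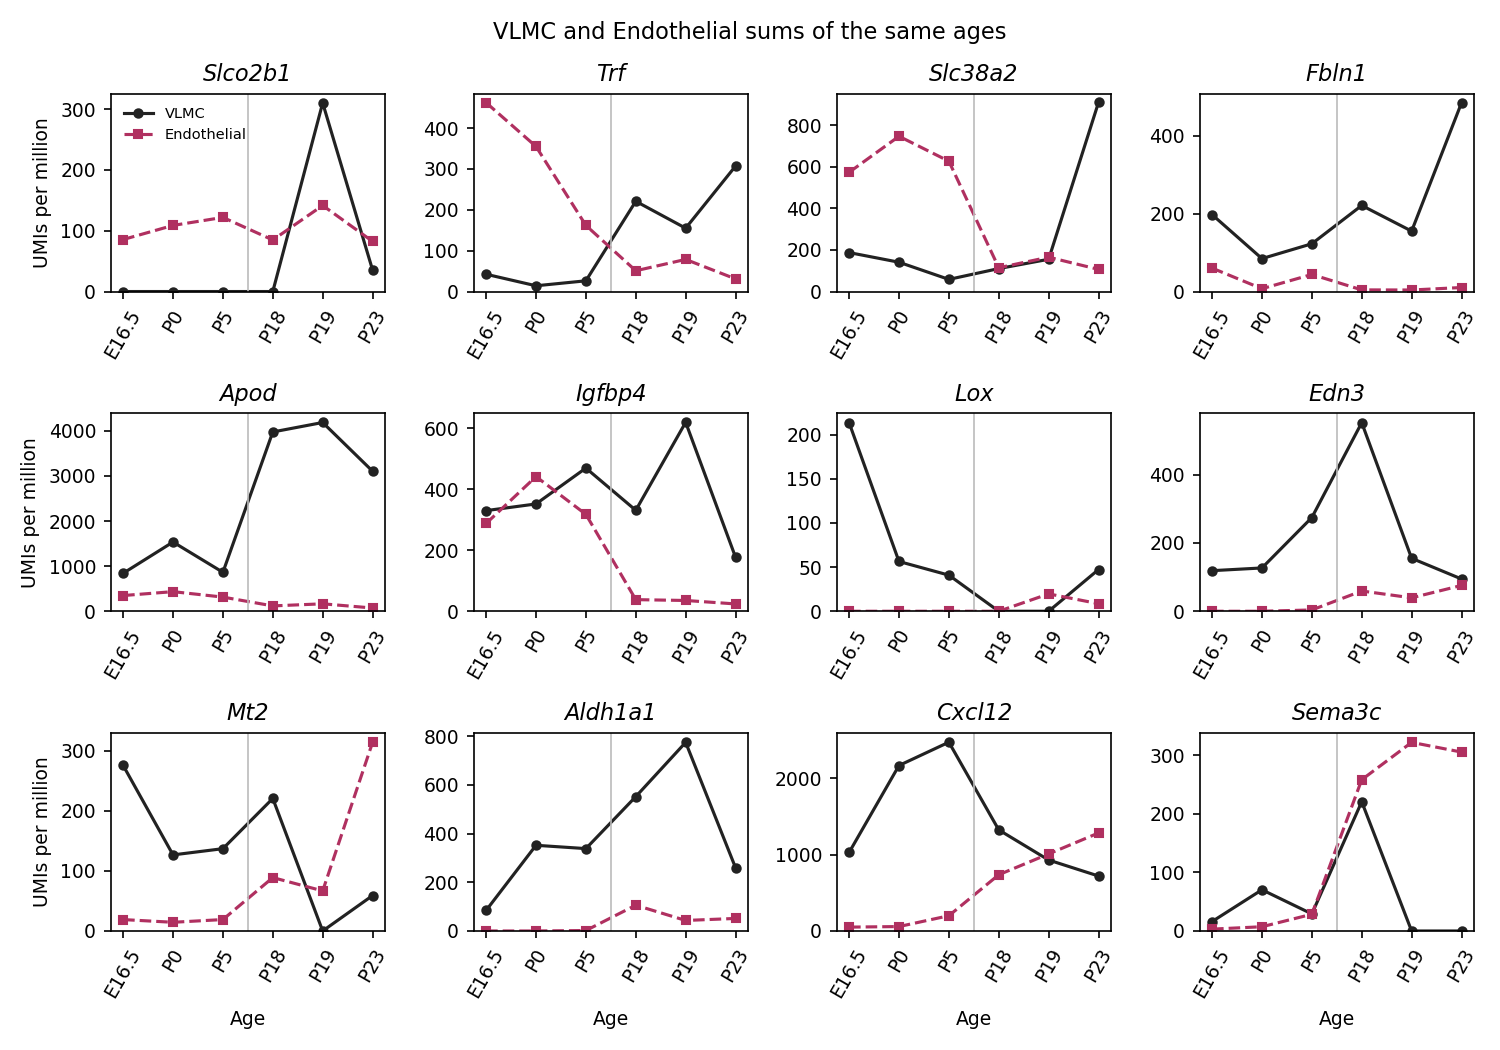
Summed level, in CPM, of 12 genes in VLMC (solid) and Endothelial (dashed) cells at the same 6 ages; the grey line parts perinatal from juvenile ages, and the lines join ages only to guide the eye. The Cxcl12 lines cross between P18 and P19, and the Trf lines between P5 and P18. P19 rests on 3 VLMC cells, so the order of the Cxcl12 values there is uncertain.

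The 61 cells at E16.5 were not alike. Fxyd5, a subunit that modulates the sodium pump, Mgp, a matrix protein that inhibits calcification, and Nov, a matricellular protein, tended to be in the same cells. Across the 61 cells, Fxyd5 correlated with Nov at 0.84 (Pearson, log values; Spearman 0.59) and with Mgp at 0.76 (Spearman 0.48), and with Vtn at -0.64 (Spearman -0.39). These cells share 1 library, and the correlations are a description. In 12 cells with at least 2 of the 3 genes, Vtn had 679 CPM and Slc6a13 322 CPM, seen in 4 of 12 cells. Vtn was seen in 5 of the 12, with 35, 24, 12, 8 and 1 UMIs. The cell with 35 held 1 UMI each of Mgp and Nov, and that with 12 held 1 each of Fxyd5 and Nov. In the other 49 cells Vtn had 2017 CPM and Slc6a13 1024 CPM, seen in 48 of 49. H19 had 1604 CPM in the 12 and 1476 CPM in the 49 cells. The 12 cells were deeper, with a median of 8168.5 UMIs against 6376. Since the 12 were picked by these genes after their values were seen, no test was made.

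Cells with at least 2 of the 3 genes numbered 12 of 61 at E16.5, 0 of 11 at P0 and 3 of 59 at P5. At P18, P19 and P23, where the median depth was lower, they numbered 0 of 4, 0 of 3 and 4 of 19. The 3 cells at P5 had 8111 to 11935 UMIs, and all 3 had Vtn (2633 CPM) and Slc6a13 (589 CPM). Across the 59 cells at P5, Fxyd5 correlated with Mgp at -0.01, with Nov at 0.13 and with Vtn at -0.04 (Pearson, log values). There Fxyd5, Mgp and Nov were seen in only 7, 6 and 7 cells, against 17, 15 and 13 of 61 at E16.5. Values this sparse cannot tell whether the trend of E16.5 was absent at P5. In the 4 cells at P23, Mgp had 4003 CPM against 337 in the other 15, and Ptgds 31313 against 97940 CPM. These sums rest on single cells: the 4 held 58, 51, 4 and 0 Mgp UMIs. In the same order they held 26, 0, 844 and 14 Ptgds UMIs and 0, 0, 10 and 12 Vtn UMIs. At E16.5, Vtn and Slc6a13 went together (0.80, Spearman 0.72), as did H19 and Cdkn1c (0.71, Spearman 0.65) and H19 and Igf2 (0.63, Spearman 0.64). At P5, over 59 cells, Cxcl12 and Ptgds had opposite trends (-0.63, Spearman -0.70), while Col1a1 and Col1a2 went together (0.81, Spearman 0.82).

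**Figure D5:**
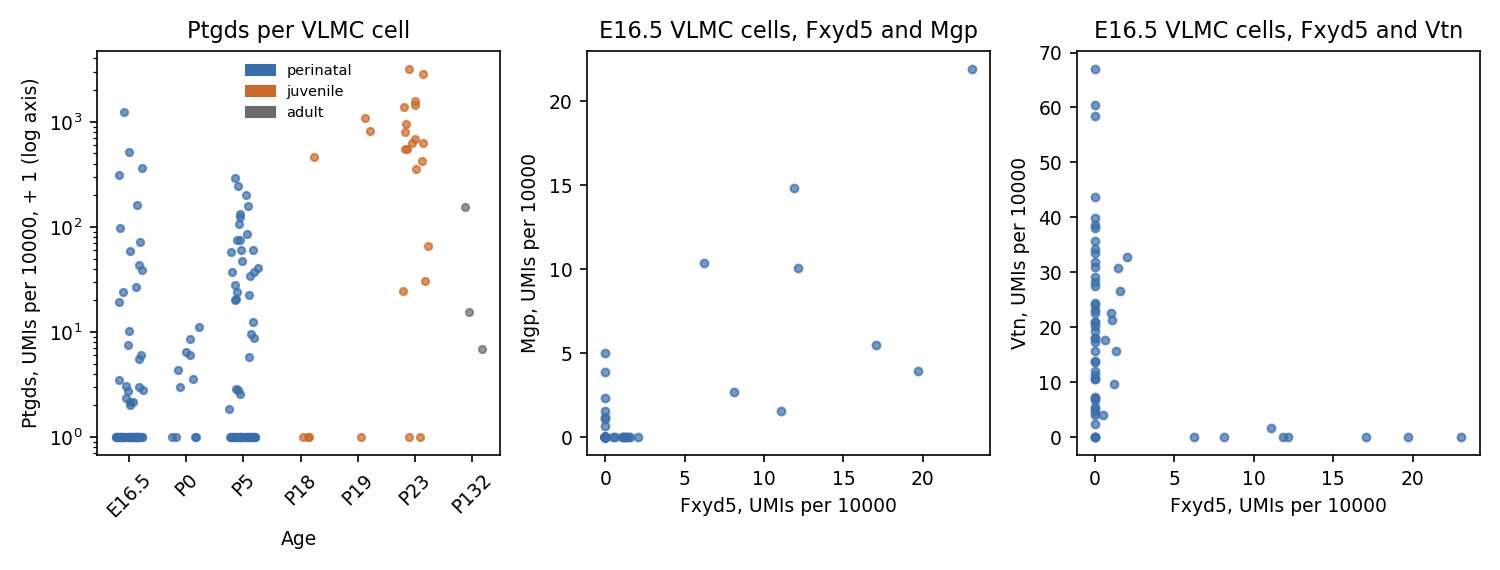
Left, Ptgds in each VLMC cell by age, as UMIs per 10000 UMIs of the cell plus 1 on a log axis; 17 of 19 cells at P23 lie above the baseline, against 26 of 61 at E16.5. Middle and right, Fxyd5 against Mgp and against Vtn in the 61 cells at E16.5, where cells high in Fxyd5 are mostly at 0 for Vtn.

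The 3 VLMC cells at P132, all from 1 library, came from GFP-sorted animals and entered no test. Ptgds was seen in all 3, at 6524 CPM, with 36 of its 40 UMIs in 1 cell, Igf2 had 1142 CPM and H19 0 UMIs. One of the cells carried 69 UMIs of the oligodendrocyte list. With 6131 UMIs in all, 1 UMI was worth 163 CPM, and lower levels were not detectable at this depth.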

How the data were processed

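Mouse dentate gyrus cells were profiled on the 10X Chromium system (kit Version 2, per the labels). The deposited table holds whole-number UMI counts for 27933 genes and 24185 cells. Cell Ranger and mm10 are named per the submitters' processing notes; versions, annotation and the clustering method are not given in the sources used here. Age, line, sex and cluster of each cell come from the authors' metadata table. There were 0 columns of per-sample values left unused. Gene positions are from GENCODE M21.

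UMI counts were summed over the VLMC cells of each age, and CPM are a gene's share of such a sum. Each age, with its pooled animals, was 1 unit. The minimum of 20 cells an age (then 10, then 5) left P23 as the only juvenile age, so every age with at least 1 VLMC cell was used instead. Tests used edgeR 4.0.16 (TMM, filterByExpr, glmQLFit, glmQLFTest, two-sided, limma 3.58.1, R 4.3.3), with Benjamini-Hochberg adjustment over all genes tested, and DESeq2 1.42.0 as an alternative. Other alternatives were RLE scaling, no filter, each age left out, libraries as units, cells thinned to 1000 UMIs, and cells with markers of another class or very many UMIs left out. The programs were tested on simulated data. The interaction test had age as a block, because both classes of an age come from the same animals.

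Named in the text are, of the genes called at 0.05 whose stages did not overlap and whose mean reached 50 CPM, the 12 with the largest log2 fold change in each direction (6 in each direction for the interaction), the 20 genes with the largest ratio of VLMC to the highest other class, and markers and list genes. Apod was named in the stage test through its place in the interaction, and Fxyd5, Mgp and Nov after their values were seen. The members and lists were chosen with earlier results of these data known. Of the genes the rule names, 1 is not reported here.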

Additional observations from a re-analysis of the deposited data

Results flagged for a closer look

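The stage differences of VLMC and Endothelial cells, under the same contrast of juvenile with perinatal ages, differed by the interaction test (edgeR's quasi-likelihood test) for 12 of the genes named. The log2 difference of differences was more positive in VLMC for Slco2b1 (6.68), Trf (5.56), Slc38a2 (4.21), Fbln1 (3.56), Apod (2.97) and Igfbp4 (2.59). It was more negative for Lox (-6.01), Edn3 (-5.34), Mt2 (-5.17), Aldh1a1 (-5.14), Cxcl12 (-4.90) and Sema3c (-4.86). Slco2b1 had 0 perinatal UMIs in VLMC and Lox 0 in Endothelial cells, so these 2 values depend on the prior count of the fit and are no bound. Aldh1a1 and Edn3 had 1.90 and 3.81 CPM or less in Endothelial cells at each perinatal age.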

How the results depend on the processing

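For the share and the stage test no paired analysis was possible, because each age is a different pool of animals. The VLMC groups carry only replicate number 1. The interaction test paired VLMC and Endothelial sums by age. The share difference of -1.08 points kept its sign with each age left out (-1.67 to -0.449). The stage test gave 31 higher and 12 lower genes. With each age left out it gave 11 to 44 higher and 5 to 46 lower genes. DESeq2 gave 18 and 51, no filter on low counts 47 and 36, libraries as units 55 and 46, and thinned cells 20 and 9 of 213 tested. RLE scaling gave 36 and 18. Without cells of very many UMIs 13 were higher and 11 lower, and without cells with markers of another class 9 were higher and 7 lower. With ages of 10 or more cells, an alternative chosen after seeing the data that leaves P23 alone in its stage, 41 were higher and 7 lower. The interaction gave 17 more positive and 48 more negative genes. It gave 8 and 9 with DESeq2, 28 and 42 with RLE scaling, 11 and 47 without the filter, 13 and 20 without the age block, 19 and 50 of 3141 genes with Microglia in place of Endothelial cells, and 4 to 18 and 21 to 119 with each age left out. Of the called genes still tested, the interaction kept its sign for 40 of 48 with Microglia and for 59 of 64 without P23, and the stage test for 40 of 41 without P23. Among the genes named or in the lists, signs turned for Slc38a2 in the stage test without P23 (-0.23 to 2.87 with each age left out), for Htra3 (-3.34 to 3.48) and Igfbp7 (-4.54 to 5.14) in the interaction without P23, and with Microglia in place of Endothelial cells for Fbln1 (-0.59), Apod (-3.25), Bgn (-1.84) and Cyr61 (0.55). Of the 20 genes highest relative to the next class over all ages, 8, 12, 13 and 10 were among the top 20 within E16.5, P0, P5 and P23. The causes were not tested. P18 and P19, with 4 and 3 cells, limit what the stage test can detect among genes of low level.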
